A study of Homo sapiens with 15 samples.

Results

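The genes described here are 10 serum-response immediate early genes outside the AP-1 family: EGR1, EGR2, EGR3, NR4A1, IER2, IER3, IER5, DUSP1, ZFP36 and BTG2. They were chosen by symbol, and all 10 were found among the 57500 genes counted in each library. The cells were K562, an established human chronic myelogenous leukaemia line. Total RNA was sequenced in 15 libraries, 3 in each of 5 groups, and every library was taken at 1 h. The control carried no construct (genotype WT, treatment NT), and the series' design text names DMSO as the control. The other 4 groups were transfected with Cas9FCPF, a Cas9 protein with an FCPF tag, and received 1 µM of JQ1 or of JQ1-FCPF. JQ1 blocks the bromodomains of BET proteins. JQ1-FCPF is a form of JQ1 named for that tag. Each compound was given to cells without an sgRNA (genotype Cas9FCPF-sgRNA) and to cells with one (genotype Cas9FCPF+sgRNA). The labels do not say whether this Cas9 cuts DNA, and the series title names dCas9. The sequence targeted by the sgRNA is not given in the labels. None of these groups had Cas9FCPF without a compound, so against the control the construct and a compound cannot be told apart.

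Immediate early genes are transcribed within minutes of a stimulus without new protein synthesis. Serum and growth factors act on them through the RAS and ERK kinase cascade, the serum response factor SRF with its ELK partners, and CREB. BET proteins bind acetylated chromatin and help release paused RNA polymerase II, a step at which many of these genes are controlled. In K562 cells the BCR-ABL kinase keeps the RAS and ERK cascade active.

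Library totals ran from 12625669 to 17544518 counts. Of the 10 erythroid-like markers listed for K562, none was at 0 in all libraries, and their summed level ran from 1400 to 2120 CPM (counts scaled to a common library size). The labels call the cells lymphoblasts, and the lymphoid markers CD3E, CD2 and MS4A1 averaged 0.435, 0.0324 and 0.00388 CPM. 2 libraries stood apart. JQ1-FCPF with sgRNA replicate 2 lay at 32.2 on the first principal component of all genes, against -16.7 and -14.8 for the other libraries of its group and 16.8 to 24.6 for the 6 JQ1 libraries. JQ1 with sgRNA replicate 1 lay at -12.5 on the second, against 5.03 and 4.93 for its group, and had the highest mitochondrial share of counts (7.46%, against 2.31% to 5.98% in the other 14 libraries). Each count of members is therefore given with and without these libraries. Left out, they leave 2 libraries in each of their groups. Why they stood apart was not tested. Other libraries were uneven too: JQ1-FCPF with sgRNA replicates 1 and 3 lay at -40 and -27.2 on the second component. Chi-square per degree of freedom was 19.9 and 19.5 for JQ1-FCPF without sgRNA replicate 1 against replicates 2 and 3, which gave 2.96 between them. For JQ1-FCPF with sgRNA replicate 2 it was 23.8 and 24.1 against replicates 1 and 3.

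The promoters of 4 of these genes are shown because their levels moved in the data below: EGR1 and DUSP1 fell together in JQ1-treated cells, while IER5 and BTG2 moved in opposite directions in cells given JQ1-FCPF with sgRNA. Each run is the 250 bases before the RefSeq start (GRCh38.p14), 5′ to 3′ on the gene's strand, and capitals mark matches on either strand to the SRF CArG box, the CREB core TGACG, the TATA box TATAAA or the ETS core CCGGAA.
EGR1, chr5:138465229-138465478, plus strand: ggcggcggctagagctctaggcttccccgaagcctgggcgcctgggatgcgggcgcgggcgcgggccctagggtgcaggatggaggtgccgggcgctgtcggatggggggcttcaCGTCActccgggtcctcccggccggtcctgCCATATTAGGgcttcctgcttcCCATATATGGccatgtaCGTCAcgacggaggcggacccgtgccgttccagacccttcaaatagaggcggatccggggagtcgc
DUSP1, chr5:172771196-172771445, minus strand: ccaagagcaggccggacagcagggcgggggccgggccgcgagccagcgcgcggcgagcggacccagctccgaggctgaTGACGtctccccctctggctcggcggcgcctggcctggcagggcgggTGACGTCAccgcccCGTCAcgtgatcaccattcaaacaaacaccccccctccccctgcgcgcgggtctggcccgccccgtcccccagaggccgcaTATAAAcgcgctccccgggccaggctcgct
IER5, chr1:181088450-181088699, plus strand: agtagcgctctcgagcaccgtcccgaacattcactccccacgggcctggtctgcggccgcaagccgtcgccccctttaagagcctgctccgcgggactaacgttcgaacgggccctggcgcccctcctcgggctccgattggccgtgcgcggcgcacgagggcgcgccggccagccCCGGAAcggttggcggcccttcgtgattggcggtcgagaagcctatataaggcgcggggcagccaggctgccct
BTG2, chr1:203305269-203305518, plus strand: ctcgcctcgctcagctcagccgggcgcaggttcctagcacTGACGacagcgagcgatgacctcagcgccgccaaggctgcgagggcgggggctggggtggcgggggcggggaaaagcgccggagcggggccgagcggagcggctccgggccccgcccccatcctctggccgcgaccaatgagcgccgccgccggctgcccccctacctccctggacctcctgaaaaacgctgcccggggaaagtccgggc

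EGR1 held 2 CArG boxes, the sites bound by SRF, which began 105 and 83 bases before the start. A CArG box stood in 1.29% of the 35116 promoters of the same length in the table, and in 2 of the 8 members with a promoter there (EGR1 and EGR2). The shares are of single promoters, while a member was counted if any of its starts matched. EGR2 had 3 starts, with the CArG box only at start 3, and NR4A1 had 2, so the units differ. DUSP1 held the whole cyclic AMP response element TGACGTCA, which CREB binds, 125 bases before its start, and a TATA box (TATAAA) 30 bases before it. These motifs were in 1.85% and 11.5% of all promoters, and DUSP1 was the only member with either. Only the exact letters TATAAA were searched, so near matches such as TATATAAG in the IER5 run above were not counted. Whether other members have a TATA box of another form was not tested. TGACG, the core of the CREB element and part of any match to TGACGTCA, was in 5 members (EGR1, EGR2, IER2, DUSP1 and BTG2) and in 24.6% of all promoters. IER5 held an ETS core (CCGGAA) 74 bases before the start, as did IER2 at 26 and NR4A1 at 17, and 17.2% of promoters have this motif. The NF-kB site was in 1 member, EGR2, and in 11.3% of promoters, and the EGR site GCGTGGGCG was in no member and in 0.795% of promoters. These matches are letters in a window and were not measured as bound sites.

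Levels between genes were compared as CPM per kilobase of exon, averaged over the 15 libraries. IER2 was highest at 121 CPM per kb, followed by EGR1 at 81.1, IER5 at 29.7, IER3 at 21.1 and ZFP36 at 15.7. On this scale IER2 lay above 97.5% of the genes tested and EGR1 above 95.9%. BTG2 (4.25) and DUSP1 (2.98) lay near the middle, above 52.4% and 44.7% of genes. NR4A1 lay at 0.475, above 13.4%, while EGR3 at 0.0913 and EGR2 at 0.0447 were too low to pass the filter on low counts. 8 of the 10 genes were therefore tested in the fit of all 15 libraries. Without both libraries that stand apart EGR3 passed this filter too, and it was called in no comparison. Across the 15 libraries EGR1 had the widest span of the 8, 5.93-fold from the lowest to the highest library. The other 7 spanned 2.09-fold to 2.73-fold.

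The levels below are CPM scaled by library size, with means ± SD of the 3 libraries of a group (n = 3) in the order of replicates 1 to 3, which have no order in time. In bulk RNA, fewer expressing cells and less RNA per cell cannot be told apart.

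EGR1 is a zinc finger transcription factor and a classic target of SRF and ERK (ENSG00000120738, chr5:138465490-138469315, plus strand). In control cells its level was 328, 294 and 269 CPM, a mean of 297 ± 29.6. JQ1 without sgRNA gave 108, 123 and 123 CPM (118 ± 8.44), and JQ1 with sgRNA gave 151, 111 and 94.4 CPM (119 ± 29.1). All 6 JQ1 libraries lay below all 3 control libraries. JQ1-FCPF without sgRNA gave 274, 320 and 322 CPM (306 ± 27.2), which overlaps the control. JQ1-FCPF with sgRNA gave 560, 210 and 533 CPM (434 ± 194). Replicates 1 and 3 of that group were the highest of the 15 libraries, while replicate 2 lay below the control and above every JQ1 library.

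EGR2 (chr10:62811996-62919900, minus strand) and EGR3 (chr8:22687659-22693302, minus strand), the paralogs of EGR1, were barely present. EGR2 had 0 to 4 counts a library and EGR3 had 3 to 12. The library without an EGR2 count, JQ1 with sgRNA replicate 1, allows up to 0.174 CPM on a floor of 3 counts. At this depth differences between groups in these genes could not be resolved. NR4A1 (chr12:52022832-52059507, plus strand), an orphan nuclear receptor, had 41 to 67 counts and 2.52 to 5.27 CPM a library. Its group means ran from 2.79 ± 0.325 CPM in JQ1-FCPF without sgRNA to 3.93 ± 0.144 in JQ1 without sgRNA, and the control stood at 3.46 ± 0.746. Neighbouring groups in that order overlapped. Unlike EGR1 and IER2, NR4A1 was highest in JQ1-FCPF with sgRNA replicate 2, at 5.27 CPM, against 3.52 and 2.89 in the other libraries of that group.

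IER2 (ENSG00000160888, chr19:13150415-13154908, plus strand) encodes a short-lived nuclear protein. Its 3 control libraries were close together at 363, 371 and 364 CPM (366 ± 4.23). JQ1 gave 312, 316 and 325 CPM without sgRNA (318 ± 6.74) and 321, 329 and 279 CPM with it (310 ± 26.8), all below the control. JQ1-FCPF without sgRNA gave 341, 374 and 396 CPM (370 ± 27.5), around the control. JQ1-FCPF with sgRNA gave 584, 330 and 585 CPM (500 ± 147), and as for EGR1 replicates 1 and 3 were the highest of all libraries and replicate 2 the lowest of its group.

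IER5 (ENSG00000162783, chr1:181088712-181092899, plus strand), whose product is a nuclear regulator of the heat shock factor HSF1, has an annotated exon length equal to its span. Control libraries had 106, 130 and 121 CPM (119 ± 11.9), and JQ1 without sgRNA had 110, 125 and 124 (120 ± 8.41). JQ1 with sgRNA gave 94.4, 102 and 109 CPM (102 ± 7.18), and JQ1-FCPF without sgRNA gave 109, 119 and 120 CPM (116 ± 5.92). These 4 groups lay close together. JQ1-FCPF with sgRNA was higher at 201, 120 and 179 CPM (167 ± 41.6), with replicate 2 at the level of the other groups.

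IER3 (ENSG00000137331, chr6:30743199-30744554, minus strand), an ERK substrate that modulates cell survival, also has an annotated exon length equal to its span. It was lower in both groups with the sgRNA. Levels were 33.3, 33.7 and 35.1 CPM in JQ1 without sgRNA (34 ± 0.928) and 32.9, 36.2 and 37.9 CPM in JQ1-FCPF without sgRNA (35.7 ± 2.57), beside 30.9, 33 and 27 CPM in the control (30.3 ± 3.07). With the sgRNA they were 19.1, 22.7 and 20.1 CPM under JQ1 (20.6 ± 1.88) and 27.5, 15.7 and 24.1 CPM under JQ1-FCPF (22.4 ± 6.1). Every library with the sgRNA lay below every treated library without it. An antisense gene, IER3-AS1, overlaps IER3 and had 10 to 34 counts against at least 199 for IER3. Whether the counting used strand is not given in the sources used here, so its reads may be in part those of its partner.

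DUSP1 (ENSG00000120129, chr5:172768090-172771195, minus strand) encodes a phosphatase that turns off MAP kinases. Control cells had 9.42, 7.04 and 7.04 CPM (7.84 ± 1.37) and JQ1-FCPF without sgRNA had 7.82, 7.12 and 6.08 CPM (7 ± 0.876). JQ1 gave 3.46, 4.25 and 4.62 CPM without sgRNA (4.11 ± 0.596) and 4.25, 4.58 and 4.41 CPM with it (4.41 ± 0.168), below all of those. JQ1-FCPF with sgRNA gave 7.82, 4.41 and 7.92 CPM (6.71 ± 2). Replicate 2 of that group was thus at the level of the JQ1 libraries, and the other libraries at that of the control.

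ZFP36, or tristetraprolin (ENSG00000128016, chr19:39406813-39409412, plus strand), binds AU-rich elements and promotes the decay of many early-response mRNAs. It had 36.5, 33 and 35.4 CPM in the control (35 ± 1.76), 22.7, 28.2 and 31.4 CPM in JQ1 without sgRNA (27.5 ± 4.39), and 22.4, 22.7 and 19.7 CPM in JQ1 with sgRNA (21.6 ± 1.65). JQ1-FCPF without sgRNA gave 28.6, 36 and 36.5 CPM (33.7 ± 4.43), and JQ1-FCPF with sgRNA gave 53.6, 26.4 and 41.5 CPM (40.5 ± 13.6). The 6 JQ1 libraries lay below the control, and replicates 1 and 3 of JQ1-FCPF with sgRNA lay above all other libraries.

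BTG2 (ENSG00000159388, chr1:203305491-203309602, plus strand) encodes an antiproliferative protein that recruits the CCR4-NOT deadenylase. Its levels were 15.4, 13.9 and 15.1 CPM in the control (14.8 ± 0.769), 11.7, 10.8 and 12.3 CPM in JQ1 without sgRNA (11.6 ± 0.755), and 12, 9.82 and 11.7 CPM in JQ1 with sgRNA (11.2 ± 1.17). JQ1-FCPF without sgRNA gave 14.2, 12.9 and 10.3 CPM (12.5 ± 1.99), and JQ1-FCPF with sgRNA gave 8.81, 7.08 and 9.64 CPM (8.51 ± 1.31). All 3 libraries of JQ1-FCPF with sgRNA lay below every other library for BTG2, which held for no other tested member.

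**Figure D1:**
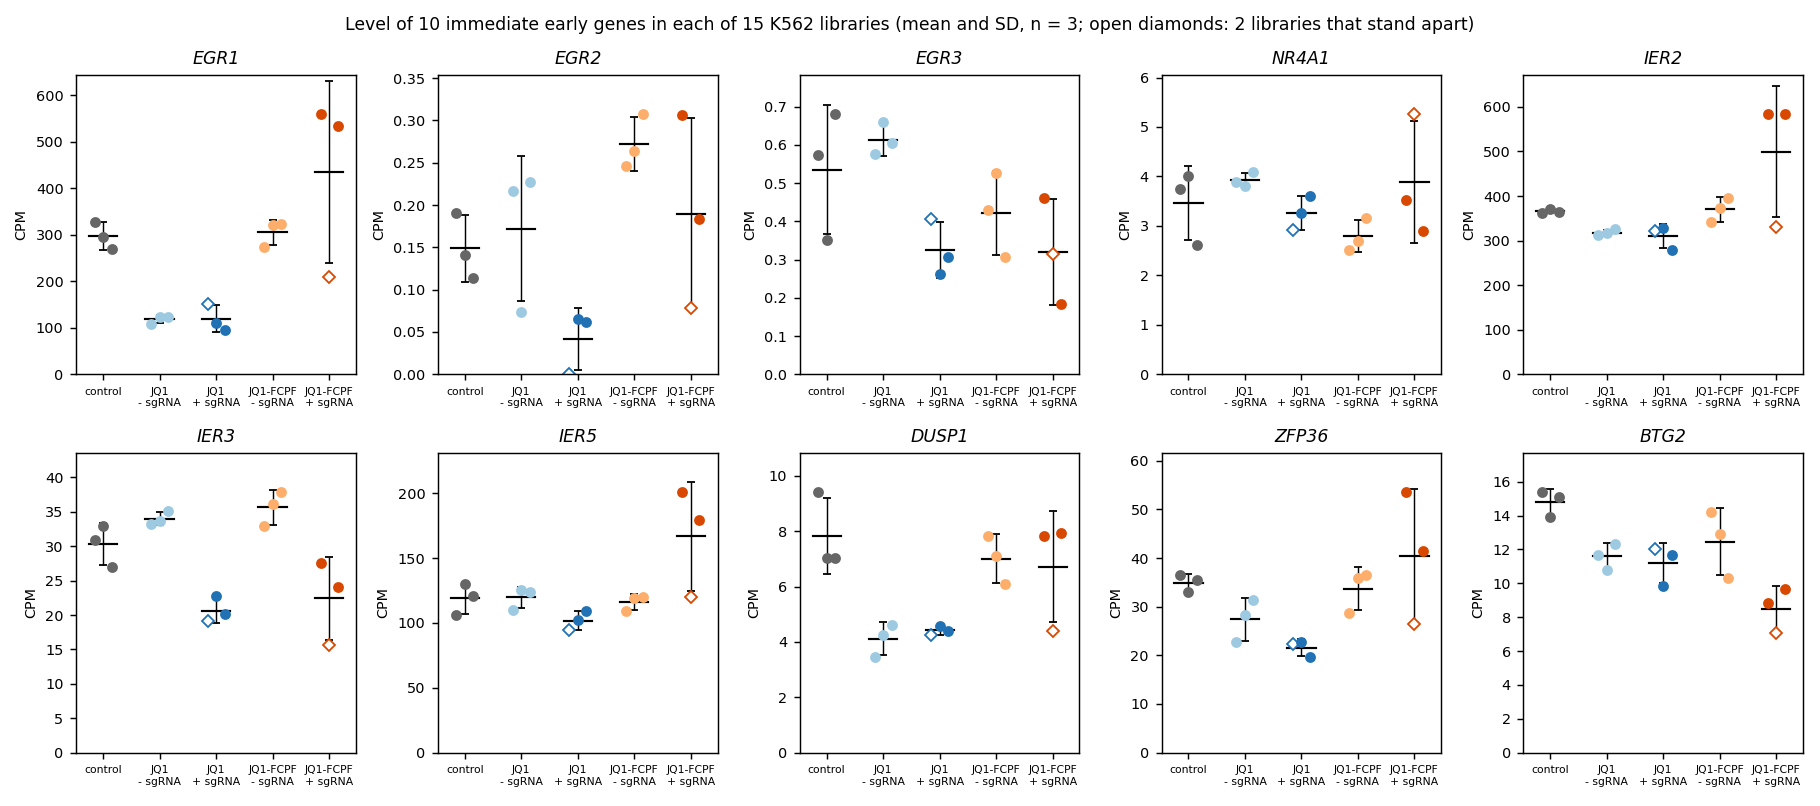
Level of each of the 10 genes (vertical axis, scaled CPM) in each of the 15 libraries, by group; points are libraries, bars the mean and SD (n = 3), and open diamonds the libraries that stand apart, JQ1 with sgRNA replicate 1 and JQ1-FCPF with sgRNA replicate 2. EGR1 lies between 94.4 and 151 CPM in the 6 JQ1 libraries, all below the control, and reaches 560 and 533 CPM in JQ1-FCPF with sgRNA, where replicate 2 lies at 210 CPM.

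JQ1-treated cells, which also carried Cas9FCPF, were compared with the control at 1 h. JQ1 and the construct cannot be told apart in these comparisons. EGR1 and DUSP1 were called lower with and without the sgRNA, and no tested member was called higher. Calls were made with edgeR's quasi-likelihood test and Benjamini-Hochberg adjustment over 15517 genes, at an adjusted p under 0.05. In JQ1 without sgRNA, EGR1 was 2.51-fold lower (log2 -1.33 ± 0.23 SE, edgeR adjusted p = 0.00226) and DUSP1 1.91-fold lower (-0.93 ± 0.21, adjusted p = 0.00756). So 0 of 8 members were called higher and 2 lower, where 6.07% of all genes tested were higher and 6.23% lower. In this comparison 3 of the 8 log2 changes were above 0. IER3 was not called (0.17 ± 0.14, edgeR adjusted p = 0.465), but its libraries, at 33.3 to 35.1 CPM, lay above those of the control, at 27 to 33 CPM. The median log2 change of the 8 was -0.28, and 0.00 over all genes. Without the 2 libraries that stand apart, neither of which belongs to these groups but both of which enter the shared estimate of spread, 4 members were lower. ZFP36 (-0.34, adjusted p = 0.0269) and BTG2 (-0.35, adjusted p = 0.0321) were added, and 13.1% of all genes were then lower.

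In JQ1 with sgRNA, 4 of 8 members were lower than in the control and 0 higher, where 7.04% of genes fell and 7.21% rose. Here JQ1, the construct and the sgRNA cannot be told apart. EGR1 fell 2.50-fold (log2 -1.32 ± 0.23, edgeR adjusted p = 0.00172), DUSP1 1.78-fold (-0.83 ± 0.20, adjusted p = 0.0107), ZFP36 1.62-fold (-0.70 ± 0.18, adjusted p = 0.0132) and IER3 1.47-fold (-0.56 ± 0.15, adjusted p = 0.016). All 8 log2 changes were below 0 (median -0.48, against 0.01 over all genes). Other than for EGR1, each call was lost without 1 of the control libraries. The edgeR adjusted p was 0.069 for IER3 without control replicate 2, 0.0546 for DUSP1 without control replicate 1, and 0.0583 for ZFP36 without control replicate 3. Without the libraries that stand apart 6 members were lower, with IER2 (-0.27, adjusted p = 0.0249) and BTG2 (-0.46, adjusted p = 0.013) added, beside 11.3% of all genes. All 4 treated groups were compared with the same 3 control libraries, so these comparisons are not independent.

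JQ1-FCPF without sgRNA left the 8 genes near the control: 0 were called, as was 0.00644% of all genes. None had an unadjusted p under 0.05 in edgeR, as 1.84% of all genes did, and DESeq2 called 0 members and 2 of all genes. Without both libraries that stand apart 0 members and 0.0254% of all genes were called. The smallest p was that of BTG2 (log2 -0.25 ± 0.14, edgeR adjusted p = 1). The 95% interval of the EGR1 change ran from -0.43 to 0.51, which leaves out the fall of 1.33 seen under JQ1 without sgRNA.

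JQ1-FCPF with sgRNA differed from the control in IER5, which was 1.40-fold higher (log2 0.49 ± 0.13, edgeR adjusted p = 0.0297), and in BTG2, 1.73-fold lower (-0.79 ± 0.15, adjusted p = 0.00153). That is 1 member higher and 1 lower of 8, where 2.42% of genes were higher and 4.79% lower. The BTG2 call held in all 21 alternative settings. The IER5 call was lost in 5 of them: when control replicate 1 or 3 or JQ1-FCPF with sgRNA replicate 1 or 3 was left out and when only these groups were fitted, with adjusted p up to 0.156. With both libraries that stand apart left out 4 members were higher and 1 lower, where 4.21% and 6.88% of all genes were. EGR1 (log2 0.89, edgeR adjusted p = 5.72e-08), IER2 (0.69, adjusted p = 8.59e-07), IER5 (0.68, adjusted p = 2.06e-06) and ZFP36 (0.45, adjusted p = 0.0146) were the higher genes and BTG2 (-0.67, adjusted p = 0.00131) the lower. For these 4 higher genes the library left out of JQ1-FCPF with sgRNA, replicate 2, was the lowest of its group, so these p-values depend on leaving it out. Leaving out JQ1-FCPF with sgRNA replicate 2 alone also gave 5 calls, beside 1075 over all genes. With it kept and JQ1 with sgRNA replicate 1 left out there were 3, beside 1559 over all genes, IER2 being added (0.46, edgeR adjusted p = 0.0474).

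**Figure D2:**
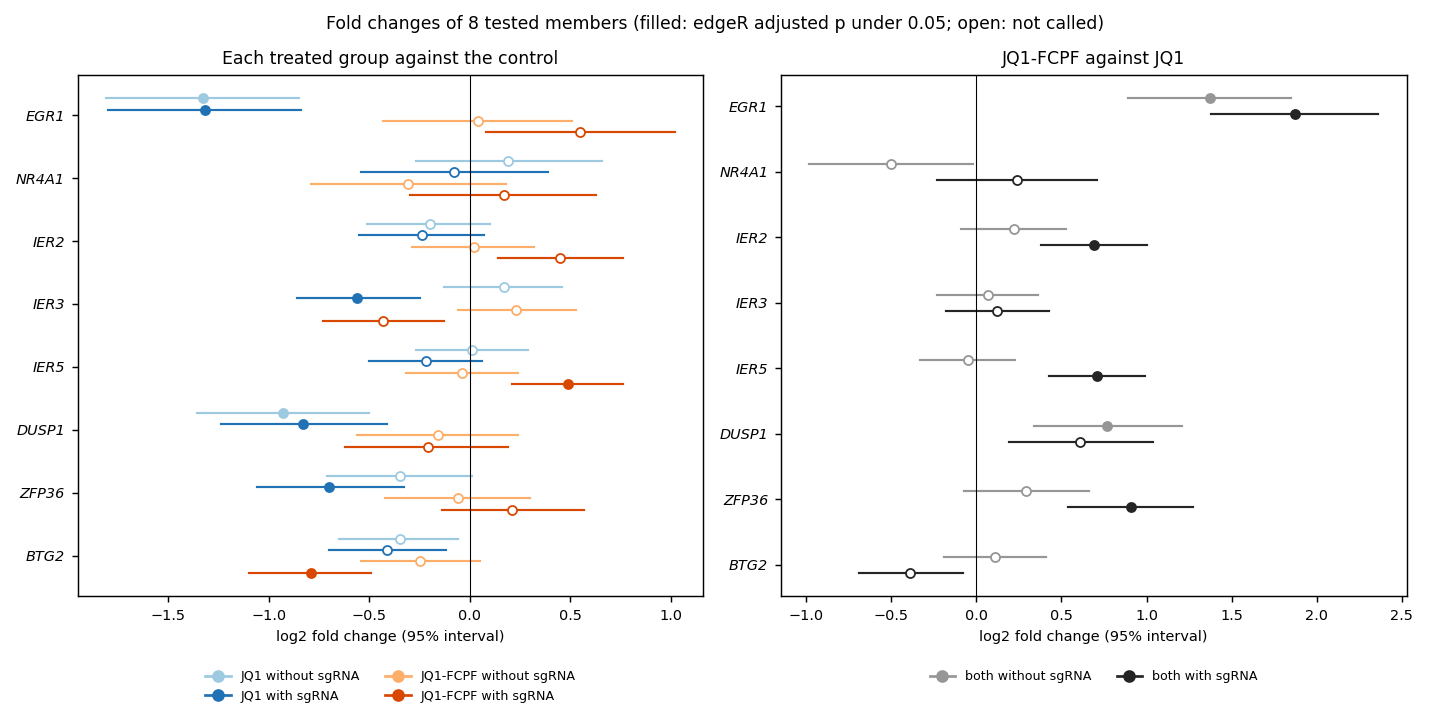
log2 fold change (horizontal axis) of the 8 tested genes, with 95% intervals, from the edgeR fit of all 15 libraries: each treated group against the control on the left, and JQ1-FCPF against JQ1 on the right, where filled points passed an adjusted p of 0.05. On the left EGR1 and DUSP1 are filled and below 0 in both JQ1 groups only. On the right EGR1 is higher under JQ1-FCPF with and without the sgRNA, at 1.87 and 1.37.

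Cells with and without the sgRNA were compared under each compound. Under JQ1-FCPF, IER5 rose 1.44-fold with the sgRNA (log2 0.53 ± 0.13, edgeR adjusted p = 0.0211), while IER3 fell 1.59-fold (-0.67 ± 0.15, adjusted p = 0.0075) and BTG2 fell 1.46-fold (-0.55 ± 0.15, adjusted p = 0.0294). 1 of 8 members was called higher and 2 lower, beside 2.06% and 4.20% of all genes tested. The median log2 change of the 8 was 0.35, against 0.01 for all genes. EGR1 (0.51 ± 0.23, adjusted p = 0.194), IER2 (0.43 ± 0.15, adjusted p = 0.0857), NR4A1 (0.47 ± 0.23, adjusted p = 0.242), ZFP36 (0.27 ± 0.17, adjusted p = 0.382) and DUSP1 (-0.06 ± 0.20, adjusted p = 0.905) did not pass.

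With all libraries 970 genes were called, and 961 without JQ1-FCPF with sgRNA replicate 2. That library was the lowest of its group for EGR1, IER2, IER5 and ZFP36, and leaving it out changed the calls of members. Without it 5 members passed: EGR1 (log2 0.84, edgeR adjusted p = 0.000463), IER2 (0.66, adjusted p = 0.000117), IER5 (0.72, adjusted p = 7.1e-05), ZFP36 (0.50, adjusted p = 0.0284) and IER3 (-0.47, adjusted p = 0.0159). BTG2 then missed the threshold (-0.43, adjusted p = 0.0944). Without both libraries that stand apart 4 members were higher and 2 lower, BTG2 among them (-0.43, adjusted p = 0.0477), where 3.55% and 6.62% of all genes were. The IER5 call was also lost when any 1 of the other 5 libraries of these groups was left out, with adjusted p up to 0.111. That of BTG2 was lost without JQ1-FCPF without sgRNA replicate 1 or 2 or JQ1-FCPF with sgRNA replicate 1, with adjusted p up to 0.0998. When only these 6 libraries were fitted, 0 of the 8 and 351 of all genes passed, and IER3 had an edgeR adjusted p of 0.065.

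Under JQ1 the sgRNA gave 0 calls among the 8, and 0.0129% of all genes were called. In edgeR 1 member had an unadjusted p under 0.05, as did 8.15% of all genes, and DESeq2 called 1 member and 7 of all genes. IER3 had the smallest p: it was 1.65-fold lower with the sgRNA (log2 -0.72 ± 0.15, edgeR adjusted p = 0.189), about as large a difference as under JQ1-FCPF. Without the libraries that stand apart IER3 was the 1 member called, and lower (-0.68, adjusted p = 0.00472), beside 0.0381% of all genes. The EGR1 difference was 0.01, with a 95% interval of -0.47 to 0.49.

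An interaction of compound and sgRNA tested whether the sgRNA effect depended on the compound. It gave 0 calls among the 8 at 0.786% of all genes called, although 5 members had an unadjusted p under 0.05 in edgeR, as did 13.9% of all genes. DESeq2 called 1 member and 248 of all genes. IER5 had the smallest p, with an sgRNA effect 0.76 ± 0.19 higher on the log2 scale under JQ1-FCPF than under JQ1 (edgeR adjusted p = 0.0632). For IER3 the effects differed by 0.06, with a 95% interval of -0.37 to 0.48. In the fit of 13 libraries, without those that stand apart, 4 members had a higher sgRNA effect under JQ1-FCPF, where 1.09% of all genes did: EGR1 by 1.05 (edgeR adjusted p = 1.13e-05), IER5 by 0.91 (adjusted p = 3.16e-05), ZFP36 by 0.88 (adjusted p = 0.0041) and IER2 by 0.73 (adjusted p = 0.000296). With all 15 libraries the difference was 0.50 for EGR1, 0.62 for ZFP36 and 0.47 for IER2 (edgeR adjusted p = 0.499, 0.269 and 0.324). For these 4 genes JQ1-FCPF with sgRNA replicate 2 was the lowest library of its group, so the p-values of the 13 libraries depend on leaving it out. The JQ1 library left out was the highest of its group for EGR1, at 151 CPM. Leaving out only JQ1-FCPF with sgRNA replicate 2 also gave 4, beside 346 calls over all genes.

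**Figure D3:**
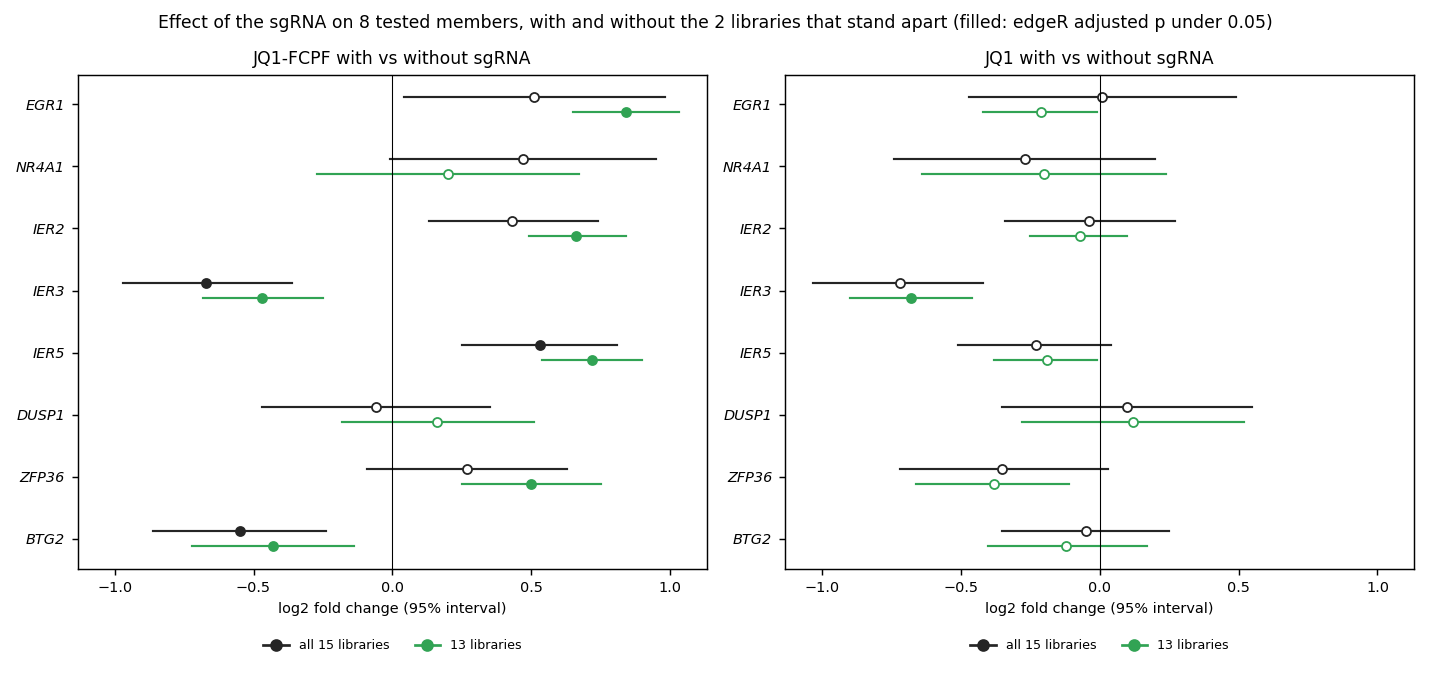
log2 fold change of cells with against cells without the sgRNA (horizontal axis) for the 8 tested genes, under JQ1-FCPF on the left and JQ1 on the right, with 95% intervals; black points are the fit of all 15 libraries, green points that without the 2 libraries that stand apart, and filled points passed an edgeR adjusted p of 0.05. EGR1 moves from 0.51 to 0.84 and IER2 from 0.43 to 0.66 under JQ1-FCPF, while IER3 lies below 0 under both compounds, at -0.67 and -0.72 in the fit of all libraries.

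JQ1 and JQ1-FCPF were compared at the same dose and time, as 2 pairs of groups. EGR1 was higher under JQ1-FCPF in both pairs. With the sgRNA it was 3.66-fold higher (log2 1.87 ± 0.23, edgeR adjusted p = 0.000101), and ZFP36 was 1.88-fold (0.91 ± 0.18, adjusted p = 0.00723), IER5 1.64-fold (0.71 ± 0.13, adjusted p = 0.00639) and IER2 1.61-fold (0.69 ± 0.15, adjusted p = 0.0141) higher. That is 4 of 8 members higher and 0 lower, beside 1.18% of all genes higher and 1.77% lower. The median of the 8 was 0.65, and -0.01 over all genes. When only these 6 libraries were fitted none of the 4 passed, with an EGR1 adjusted p of 0.076, and without JQ1-FCPF with sgRNA replicate 1 only EGR1 did. In these 2 settings 11 and 68 of all genes were called. The IER2 call was also lost without JQ1-FCPF with sgRNA replicate 3 or JQ1 with sgRNA replicate 3 (adjusted p = 0.108 and 0.0643). Without the libraries that stand apart 5 members were higher, DUSP1 among them (0.82, edgeR adjusted p = 0.00319), beside 9.76% of all genes. For DUSP1 the JQ1-FCPF library left out was the lowest of its group, at 4.41 CPM. IER3 differed between the compounds by 0.12, with a 95% interval of -0.18 to 0.43.

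Without the sgRNA, EGR1 was 2.59-fold higher under JQ1-FCPF than under JQ1 (log2 1.37 ± 0.23, edgeR adjusted p = 0.00407) and DUSP1 1.71-fold higher (0.77 ± 0.21, adjusted p = 0.0306). 2 of 8 members were higher and 0 lower, beside 4.11% and 3.69% of all genes. The EGR1 call held in all 21 alternatives, while that of DUSP1 was lost when any 1 of the 6 libraries was left out (adjusted p up to 0.124). With the libraries that stand apart left out, 3 members were higher, with IER2 added (0.22, adjusted p = 0.0386), beside 11.3% of all genes. IER5 differed by -0.05 (95% interval -0.33 to 0.23) and IER3 by 0.07 (-0.23 to 0.36). Both pairs share their libraries with the comparisons against the control and with those of the sgRNA.

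Other genes of the same pathway were taken from 5 lists and read in JQ1-FCPF with against without sgRNA, where as above 2.06% of all genes were higher and 4.20% lower. Among 26 genes for SRF, its cofactors and the ERK cascade, all tested, 0 were higher and 1 lower. This was RPS6KA4, a kinase downstream of ERK and p38, with log2 -0.48 ± 0.10 (edgeR adjusted p = 0.00502). SRF itself (-0.27, edgeR adjusted p = 0.0858) and its cofactor MRTFB (0.43, adjusted p = 0.0817) did not pass. Of 12 AP-1 genes 3 were higher and 1 lower: FOS rose 2.91-fold (1.54 ± 0.25, adjusted p = 0.00047), JUNB 1.51-fold (0.59 ± 0.16, adjusted p = 0.0302) and ATF3 1.37-fold (0.46 ± 0.13, adjusted p = 0.0409), and FOSL1 fell 2.10-fold (-1.07 ± 0.12, adjusted p = 8.44e-06). FOS averaged 24.5 CPM in the control, 9.77 and 8.64 CPM in JQ1 without and with sgRNA, and 21.9 and 63.4 CPM in JQ1-FCPF without and with sgRNA. FOS, like EGR1, was thus highest in JQ1-FCPF with sgRNA and lowest in the JQ1 groups. Over the 13 libraries without those that stand apart 3.55% of all genes were higher and 6.62% lower. Of the SRF and ERK list 1 gene was then higher and 2 lower, the latter RPS6KA4 (-0.38, edgeR adjusted p = 0.00499) and SRF (-0.28, adjusted p = 0.0244). Of the AP-1 genes 4 were then higher and 1 lower, with FOS at 1.86 and JUNB at 0.85.

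Of 10 tested among 13 listed paralogs and partners of the 10 genes, 1 was higher and 3 lower. ZFP36L2, an AU-rich element binding paralog of ZFP36, fell 2.10-fold (log2 -1.07 ± 0.09, edgeR adjusted p = 3.34e-07), and ZFP36L1 fell 1.45-fold (-0.54 ± 0.13, adjusted p = 0.0143). NAB2, a corepressor that binds EGR proteins and is itself an EGR1 target, fell 2.04-fold from 169 to 82.8 CPM (-1.03 ± 0.10, adjusted p = 1.08e-06). BTG1, the paralog of BTG2, rose 1.28-fold (0.36 ± 0.10, adjusted p = 0.0344). In the interaction test, which called 0.786% of all genes, 0 of these 10 were higher and 2 lower, ZFP36L2 (-0.77 ± 0.13, edgeR adjusted p = 0.00559) and NAB2 (-0.81 ± 0.14, adjusted p = 0.0062). Without the libraries that stand apart 1 of the 10 was higher with the sgRNA and 6 lower, beside 3.55% and 6.62% of all genes. ZFP36L2 was then at -1.04 and NAB2 at -0.92. The interaction then had 1 of the 10 higher and 3 lower, where 3.25% of all genes were called, with BTG1 (adjusted p = 0.02) and ZFP36L1 (adjusted p = 0.00879) added in edgeR.

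Of 11 ERK feedback genes tested among 14 listed, 1 was higher and 3 lower. The inhibitors of receptor tyrosine kinase signalling SPRY1 (log2 -1.92 ± 0.37, edgeR adjusted p = 0.0026, from 1.83 to 0.481 CPM) and SPRY4 (-0.74 ± 0.13, adjusted p = 0.00112) fell, as did PHLDA1 (-0.84 ± 0.19, adjusted p = 0.00984), and the ETS factor ETV5 rose (0.47 ± 0.13, adjusted p = 0.0296). Of 24 other primary response genes tested among 30 listed, 3 were higher and 8 lower. The BMP target ID1 fell 2.01-fold (-1.01 ± 0.13, adjusted p = 4.66e-05), the NF-kB inhibitor TNFAIP3 2.35-fold (-1.23 ± 0.16, adjusted p = 5.58e-05), the cytokine inhibitor SOCS3 1.57-fold (-0.65 ± 0.12, adjusted p = 0.00204) and the kinase SGK1 2.06-fold (-1.04 ± 0.20, adjusted p = 0.00265). The median of this list was -0.37 and that of the feedback list -0.26, while the 8 members had 0.35. In the fit of 13 libraries the feedback list again had 1 higher and 3 lower, and the other primary response genes had 5 higher and 11 lower, with medians of -0.25 and -0.20. Of all genes 3.55% were higher and 6.62% lower in that fit.

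**Figure D4:**
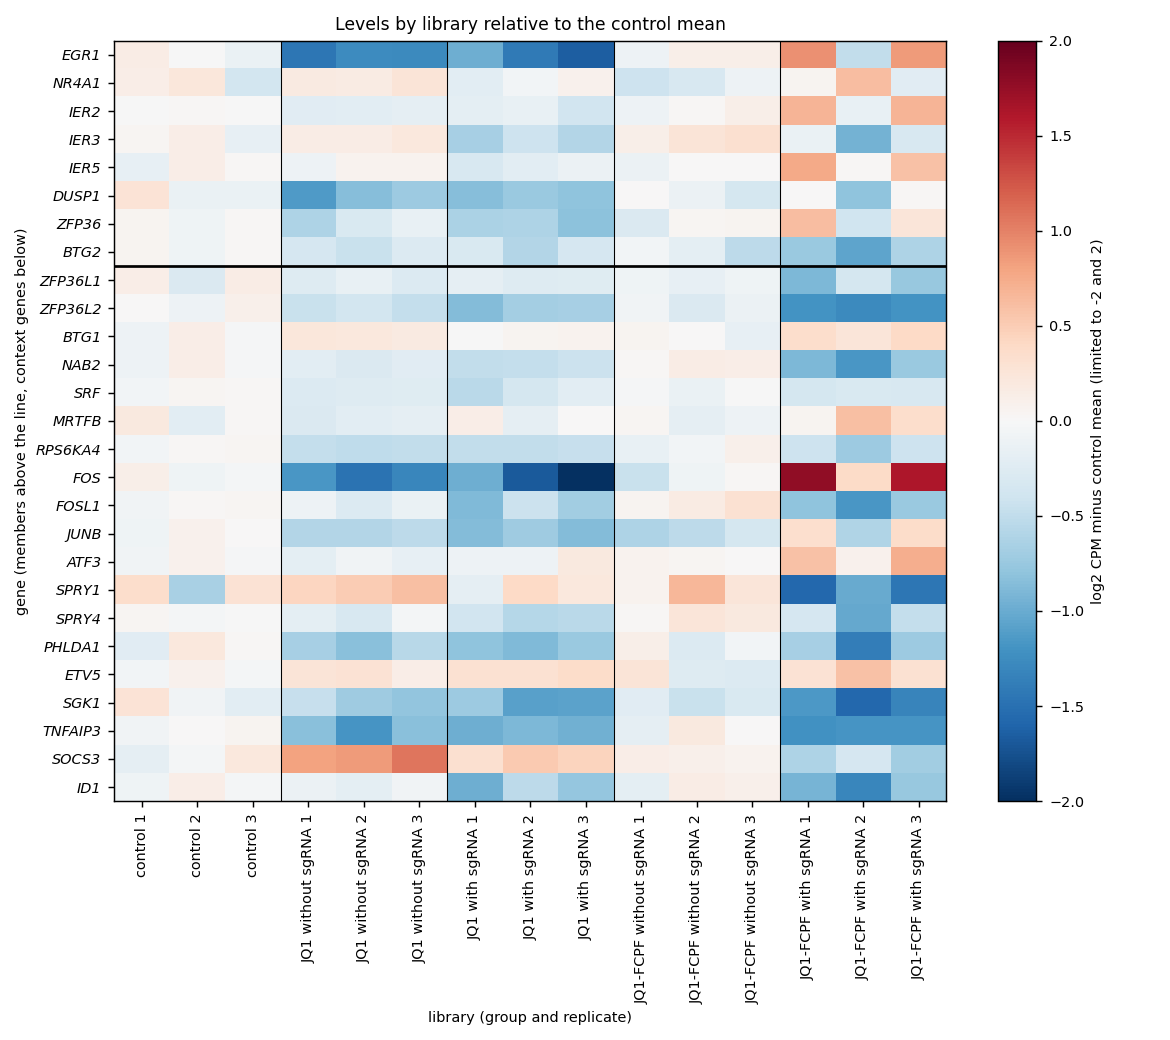
log2 CPM of each gene in each library minus the mean of the control libraries (colour, limited to -2 and 2), with the 8 tested genes above the black line and genes named from the 5 lists below it; columns are libraries by group. EGR1 is at 0.92 and 0.849 in JQ1-FCPF with sgRNA replicates 1 and 3 and at -0.491 in replicate 2, and it lies between -1.647 and -0.97 in the 6 JQ1 libraries.

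The tested genes did not vary as 1 block. Over the 15 libraries, which share their groups, the Pearson correlation of log2 CPM was 0.89 for EGR1 with ZFP36, 0.88 for IER2 with IER5, 0.87 for EGR1 with DUSP1 and with IER2, and 0.86 for IER2 with ZFP36. BTG2 correlated at -0.03 with EGR1, -0.28 with IER2 and -0.40 with IER5, and NR4A1 at -0.31 with EGR1 and -0.46 with BTG2, the last being -0.13 without the libraries that stand apart. IER3 correlated at 0.19 with EGR1 over all libraries. Deviations from the group means gave other values, at 0.79 for IER3 with EGR1, and for BTG2 at 0.48 with EGR1, 0.36 with IER2 and 0.28 with IER5.

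Among 12118 protein-coding genes tested, those whose log2 CPM most resembled that of EGR1 over the 15 libraries included the mRNA export factor NXF1 (Pearson r = 0.95), FOS (0.944), MASP2 (0.943) and OSBPL3 (0.934). For IER2 they were MIDN (0.945), the histone gene H4C8 (0.938), BAIAP2 (0.924), TNRC6C (0.922) and NXF1 (0.92). NXF1 was the 1 gene on both lists. Without the 2 libraries that stand apart the values lay between 0.959 and 0.973 for EGR1 and between 0.92 and 0.968 for IER2.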

How the data were processed

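Total RNA was sequenced. No aligner or counting tool is named in these sources. The deposited files hold whole-number read counts per gene made by the authors, 1 file a library, with GENCODE-style Ensembl identifiers and their coordinates and exon lengths per the file headers. Of 57500 identifiers, 56898 are in GENCODE 29 (GRCh38), 96.3% of them with the same start and end, all 10 members included. Symbols were found for 40907. Counts were tested with edgeR 4.0.16 (R 4.3.3): filterByExpr (15517 genes left), TMM scaling, 1 mean per group over all 15 libraries, quasi-likelihood tests of 9 contrasts, and Benjamini-Hochberg adjustment over all genes tested, with calls at an adjusted p under 0.05. DESeq2 1.42.0 was an alternative. Correlations and maps use log2 CPM with a prior count of 2. The edgeR step was tested on simulated counts with 1 spread for all genes, changes in 1 group and no library that stands apart. That test therefore does not cover the effect of such libraries. The biological coefficient of variation was 11.1%.

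Members and lists were chosen with earlier results of these data known. Fold changes are named for members called, for all tested members in JQ1-FCPF with against without sgRNA, and for the smallest p where none was called. From each list the 4 genes with the smallest p in that comparison are named, and likeness is given for the 2 tested members highest per kb. Some genes that this rule selects are not reported here. Values without the libraries that stand apart, intervals of uncalled members and values of EGR1 and FOS by group are given beside these, chosen after they were seen. Separate cultures are not stated for the replicates, and p-values then cover only the spread among these libraries, possibly technical. Replicate libraries all differed by more than sampling noise (chi-square per degree of freedom 2.96 to 48.9). Title letters repeat across groups, and the labels do not say that they pair samples. Promoter sequences are from RefSeq (GRCh38.p14), for 8 of the 10 members. Limits from a floor of 3 counts cover counting error only. Alternatives were another tool, another scaling, no filter, only the groups compared, a replicate block, each library left out, and both libraries that stand apart left out.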

Additional observations from a re-analysis of the deposited data

How the results depend on the processing

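Of 25 changes of single members named in the text, 7 kept their direction and their side of the threshold in all 21 alternatives. Of the 17 that passed the threshold, 5 never lost it. The number of members called in JQ1-FCPF with against without sgRNA was 3, and it was 5 with no filter on low counts, 0 with only the groups compared, 6 without both libraries that stand apart, and 1 to 5 when 1 library was left out. Over all genes the calls were 970, then 1118, 351 and 1600, and 428 to 1366 when 1 library was left out. For JQ1 with against without sgRNA it was 0, with 1 in DESeq2, 1 with no filter, 1 without both libraries that stand apart, and 0 to 1 when 1 library was left out. There, all-gene calls were 2, then 7, 80 and 9, and 0 to 7 when 1 library was left out. For the interaction the number of members called was 0, with 1 in DESeq2, 1 with no filter, 4 without both libraries that stand apart, and 0 to 4 when 1 library was left out. Its all-gene calls were 122, then 248, 316 and 511, and 50 to 346 when 1 library was left out. JQ1 without sgRNA against control had 2, with 5 when only those groups were fitted and 4 without both libraries that stand apart. Beside these, 1908, 4521 and 4234 of all genes were called. JQ1-FCPF with sgRNA against control had 2, with 5 under no filter, 1 with only the groups compared, 5 without both libraries that stand apart, and 1 to 5 when 1 library was left out. Here 1119 of all genes were called, then 1287, 543 and 1745, and 542 to 1559 when 1 library was left out. JQ1-FCPF against JQ1 had 4 with the sgRNA, with 0 when only the groups compared were fitted and 1 to 5 when 1 library was left out, and 2 without the sgRNA, with 1 to 2 when 1 library was left out. All-gene calls were 458 with the sgRNA, then 11 and 68 to 2757, and 1210 without it, then 76 to 2311. The DUSP1 change in JQ1-FCPF with against without sgRNA, -0.06, ran from -0.2 to 0.17 when 1 library was left out, with 0.03 without JQ1-FCPF without sgRNA replicate 1, 0.17 without JQ1-FCPF with sgRNA replicate 2, and 0.16 without both libraries that stand apart. The causes were not tested.

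A replicate block by title letter changed no number of members called: 3 in JQ1-FCPF with against without sgRNA, 0 for JQ1 with against without sgRNA and for the interaction. With the block 833, 3 and 93 of all genes were called in these comparisons. Deviations from the group means of samples with the same letter correlated at -0.24 to 0.31 (median -0.01), and 4 of 15 libraries correlated best with a library of their own letter. EGR2 and EGR3 were limited by depth, at 0 to 4 and 3 to 12 counts a library.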
